A study of Mus musculus with 6 samples.

Results

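The autophagy machinery described here comprised 40 mouse genes that encode the proteins building, loading and delivering the autophagosome. The members were chosen by gene symbol from known role, as the rows of the deposited table whose gene name equals a listed symbol, and all 40 were found among the 49315 genes of that table. RNA-Seq had been performed on osteoclasts (n = 3 libraries) and on the bone marrow macrophages (BMMs) from which they formed (n = 3 libraries), all of wild-type genotype. The osteoclasts had been collected on day 4 in medium with 75 ng/mL RANKL, the cytokine that drives osteoclast formation, and a lower share of CMG14-12 supernatant, a source of M-CSF. The BMMs had been collected on day 0 in growth medium with CMG14-12 supernatant and without RANKL. Marrow had been flushed from the femur and the tibia, and the age and sex of the mice of these libraries were not given in the sources used here. No library of day 4 without RANKL was analysed here, so RANKL, the share of CMG14-12 supernatant and the days in culture cannot be told apart. The labels number the libraries of each group from 1 to 3 as biological replicates without naming animals or cultures. The p-values rest on the spread between these libraries. In bulk RNA, fewer cells of a type and less RNA per cell cannot be told apart.

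Macroautophagy encloses cytoplasm, protein aggregates or organelles in a membrane that closes into an autophagosome and fuses with the lysosome. The ULK kinase complex starts the process, a class III phosphatidylinositol 3-kinase (PI3K) marks the membrane with the lipid PI3P, and WIPI, ATG2 and ATG9 proteins read that mark and feed lipid into the growing sheet. Ubiquitin-like conjugation then attaches Atg8-family proteins (LC3 and GABARAP) to the membrane, where they bind cargo receptors such as p62. In osteoclasts, the large multinucleated cells that resorb bone, LC3 and the conjugation proteins ATG5 and ATG7 are also known for a role at the ruffled border, the membrane through which acid and proteases are secreted onto bone.

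The Atg8 family held the largest difference of the list in each direction, in Map1lc3a and Gabarapl1. The ends of the coding sequences of its 5 genes are therefore shown. Each Atg8 protein is made as a precursor that ATG4 proteases cut after a conserved glycine, which is then joined to phosphatidylethanolamine. The lines give the last 45 coding bases with the stop codon, 5′ to 3′, from GENCODE vM21 on GRCm38, and capitals mark the glycine codon.
Map1lc3a, chr2:155277593-155277637 (+): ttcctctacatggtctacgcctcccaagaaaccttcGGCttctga
Gabarapl2, chr8:111952361-111952405 (+): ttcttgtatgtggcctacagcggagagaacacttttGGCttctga
Gabarap, chr11:69994480-69994524 (+): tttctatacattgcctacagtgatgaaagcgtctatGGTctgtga
Map1lc3b, chr8:121596726-121596770 (+): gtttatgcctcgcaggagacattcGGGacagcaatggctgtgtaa
Gabarapl1, chr6:129541123-129541167 (+): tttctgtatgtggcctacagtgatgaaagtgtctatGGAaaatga
The glycine codon was followed by 1 codon before the stop in Map1lc3a, Gabarap, Gabarapl1 and Gabarapl2, and by 5 codons in Map1lc3b. The glycine codon was GGC in Map1lc3a and Gabarapl2, GGT in Gabarap, GGG in Map1lc3b and GGA in Gabarapl1. Over the whole coding sequence, Map1lc3a and Map1lc3b shared 76.0% of aligned bases and Gabarap and Gabarapl1 shared 74.9%. Gabarapl2 shared 61.9% with Gabarap and 63.8% with Gabarapl1, and the LC3 genes shared between 51.4% and 59.5% with the GABARAP genes.

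Autophagy and lysosome genes are known targets of TFEB, TFE3 and MITF, which bind the E-box core CACGTG, and the promoters were therefore searched for that core. RefSeq promoter windows of GRCm38.p6, which run from 250 bases before to 50 bases after each start, were matched for 33 of the 40 members. CACGTG, a palindrome read on both strands at once, occurred in windows of 5 of the 33 members (15.2%), and 8.09% of the 27025 genes in the promoter table held it. The longer TCACGTGA, which contains the same core, occurred in 1 member, Atg3, and in 1.12% of all genes. The stretches below show the motif in capitals with its flanks, 5′ to 3′ on the strand of the gene.
Atg3, chr16:45158715-45158783 (+): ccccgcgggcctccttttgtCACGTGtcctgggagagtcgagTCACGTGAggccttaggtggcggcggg
Atg5, chr10:44268305-44268350 (+): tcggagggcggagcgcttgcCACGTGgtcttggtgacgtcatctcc
Atg7, chr6:114670944-114670989 (+): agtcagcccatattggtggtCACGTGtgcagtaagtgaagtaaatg
Atg14, chr14:47568410-47568455 (-): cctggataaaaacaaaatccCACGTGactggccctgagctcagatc
Rubcn, chr16:32868429-32868474 (-): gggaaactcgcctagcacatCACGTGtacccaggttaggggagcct
The core began 94 and 71 bases before the RefSeq start of its window in Atg3, 14 in Atg5, 132 in Atg7, 1 in Atg14 and 88 in Rubcn. A gene can have windows at more than 1 start, and any window with the core was counted. The stretches of Atg7, Atg14 and Rubcn lie inside the GENCODE coordinates of these genes given below, not before their 5′ ends. Of these 5 genes, Atg3 was higher in osteoclasts, Atg7, Atg14 and Rubcn were lower, and Atg5 did not pass the test. A match describes these letters only. The windows of Atg12, Atg16l1, Pik3c3, Epg5, Rb1cc1, Becn1 and Map1lc3a were not matched.

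Values were TPM (transcripts per 1000000 in a library), a unit that accounts for gene length. The gene lengths used were not given, so comparisons of level between different genes rest on lengths that could not be checked. The difference between groups in a ratio of genes depends less on them. Read depth is unknown, since TPM does not keep it. The libraries bore out their labels: all 11 osteoclast markers were higher in osteoclasts, with a sum of 38363 to 38951 TPM in osteoclasts and 333 to 355 TPM in BMMs, and 9 of 10 macrophage markers were lower (1477 to 1696 TPM in osteoclasts, 4254 to 4384 TPM in BMMs). Markers of other cells also differed. The neutrophil list, with 8 of 8 tested markers lower, summed to between 14.4 and 26.3 TPM in osteoclasts and between 2961 and 3232 TPM in BMMs, and the stromal list, with 3 of 4 tested markers higher, to between 111 and 138 TPM in osteoclasts and between 7.05 and 7.25 TPM in BMMs. B cell, T cell, erythroid, dendritic cell and mast cell or basophil lists each summed to at most 11.1 TPM in any library, with the erythroid marker Hbb-bt at 0 throughout. The part of these markers in the results below was not tested.

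Transcripts of the autophagy machinery were lower in osteoclasts more often than higher, by modest amounts. Of the 40 genes, 10 were higher in osteoclasts (25.0%), 17 were lower (42.5%) and 13 did not pass the test, which was limma on log2(TPM + 1) with an adjusted p under 0.05 over the 12325 genes that averaged 1 TPM or more. Of all genes tested, 45.3% were higher, 23.5% were lower and 68.9% were called in either direction, against 67.5% of the autophagy genes. The median log2 fold change, osteoclast minus BMM, was -0.18 for the autophagy genes and 0.19 for all genes tested. The largest changes were small for this comparison: 2 of the 40 genes, Map1lc3a and Gabarapl1, changed at least 2-fold on the log2(TPM + 1) scale, against 21.2% of all genes tested. The SD of the log2 fold changes was 0.47 over the autophagy genes and 0.98 over all genes tested. Values of the groups did not overlap for 29 of the 40 genes, and for 73.5% of all genes tested.

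**Figure D1:**
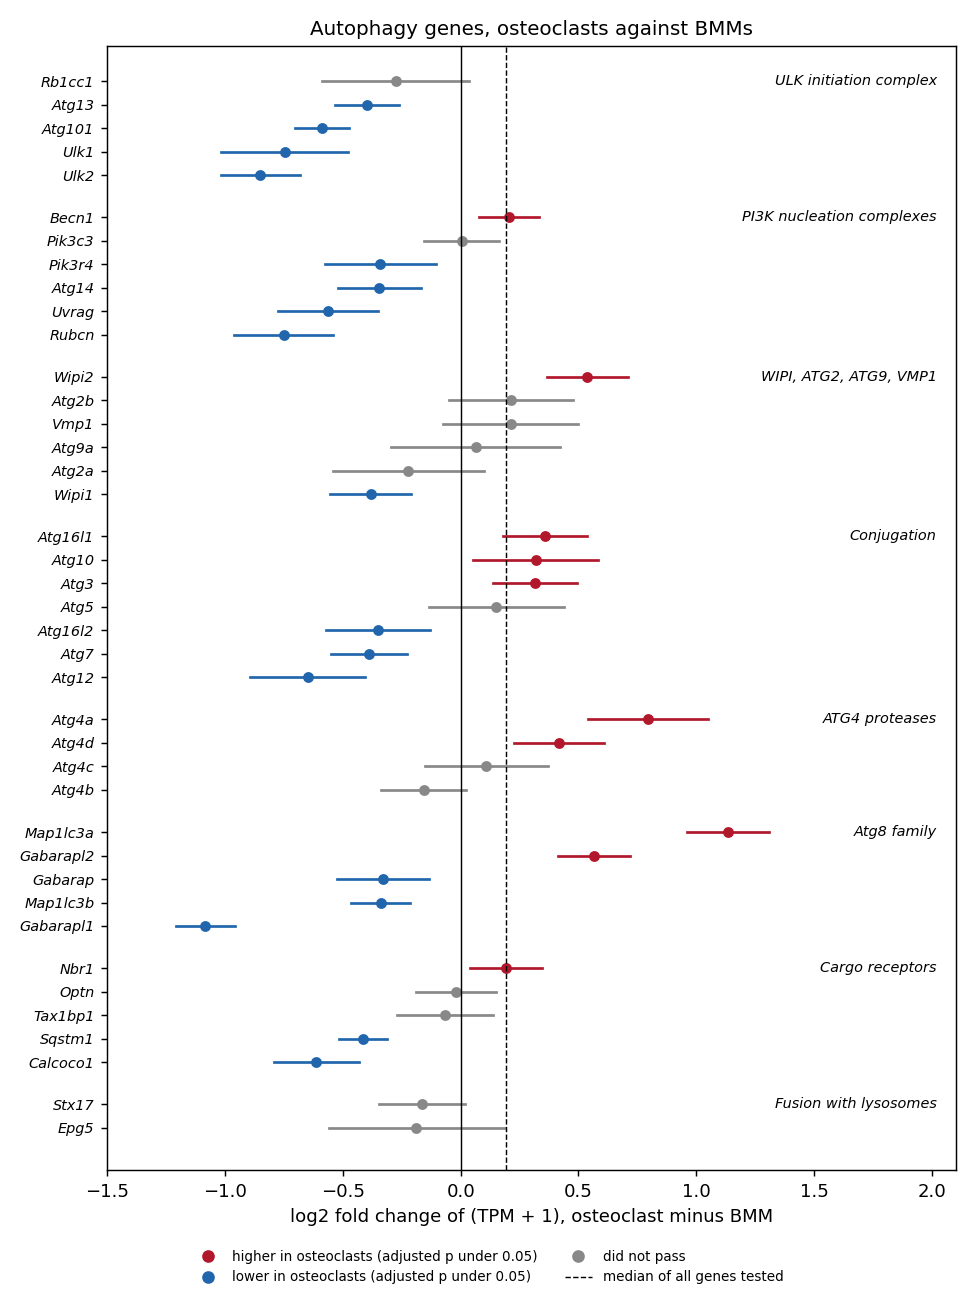
Log2 fold change of TPM + 1, osteoclast minus BMM, of each of the 40 genes (horizontal axis) with its 95% confidence interval from limma, 3 libraries a group, grouped by role; red is higher in osteoclasts, blue is lower, grey did not pass, and the dashed line is the median of all genes tested (0.19). Map1lc3a (1.13) and Gabarapl1 (-1.08) mark the ends of the range, and 6 genes (Becn1, Pik3c3, Atg9a, Atg5, Atg4c and Nbr1) turn to below 0 after median-ratio scaling.

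The shares depended on how the libraries were scaled. Osteoclast markers alone took up at least 38363 TPM of each osteoclast library, and TPM sums to a fixed total. Whether this had a part in the dependence on scaling was not tested. With median-ratio scaling the median over all genes moved to 0.00, 5 of the 40 autophagy genes were higher and 24 were lower, and of all genes tested 4149 were higher and 4131 were lower. Quantile normalization gave 5 higher and 25 lower. The 5 genes higher under every alternative run were Wipi2, Atg4a, Atg4d, Map1lc3a and Gabarapl2, and 16 of the 17 lower genes, all but Pik3r4, stayed lower under every alternative that gave them a value (Atg16l2 had none under the filter at 5 TPM).

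Transcripts of the kinase complex that starts autophagy were lower in osteoclasts for 4 of its 5 genes, with none higher and a median log2 fold change of -0.59. In the following, 3 values of a group are those of its replicates 1, 2 and 3, and coordinates are those of the gene on GRCm38. Counts by step and list stand beside 45.3% higher, 23.5% lower and 73.5% without overlap among all genes tested. Ulk2 (chr11:61775649-61855073), which encodes a kinase of the complex, had 25.9, 21.8 and 23.8 TPM in osteoclasts, against 44.1, 43.0 and 43.8 TPM in BMMs (log2 fold change -0.85, SE 0.07, limma adjusted p = 1.6e-05). Its paralog Ulk1 (chr5:110784488-110810097) had 16.9, 14.1 and 20.2 TPM in osteoclasts, against 28.9, 28.4 and 29.7 TPM in BMMs (log2 fold change -0.75, SE 0.12, limma adjusted p = 0.00057). Every osteoclast library lay below every BMM library for both kinases. Atg101 (chr15:101284272-101290945), which encodes the partner that stabilises ATG13, was the most abundant transcript of the complex, with 81.8, 80.7 and 84.6 TPM in osteoclasts, against 127, 123.1 and 122 TPM in BMMs (log2 fold change -0.59, SE 0.05, limma adjusted p = 1.5e-05). Atg13 (chr2:91674618-91710576), encoding the adaptor that links the kinases to their scaffold, had 26.7, 24.8 and 25.1 TPM in osteoclasts, against 34.1, 33.4 and 34.3 TPM in BMMs (log2 fold change -0.40, SE 0.06, limma adjusted p = 0.00043). The groups did not overlap for either gene. Rb1cc1 (chr1:6206197-6276648), which encodes the scaffold FIP200, had 6.001, 5.19 and 3.90 TPM in osteoclasts, against 5.84, 6.60 and 6.27 TPM in BMMs, with 1 osteoclast value inside the BMM range, and did not pass (log2 fold change -0.28, SE 0.14, limma adjusted p = 0.10). Without osteoclast replicate 1 its log2 fold change was -0.39 with an adjusted p of 0.033 from limma, and without osteoclast replicate 3 it was -0.13 with an adjusted p of 0.24 from limma. It passed after both other scalings.

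Among the genes of the class III PI3K complexes, 4 of 6 were lower in osteoclasts, 1 was higher and the median log2 fold change was -0.34. The lower genes encode subunits that anchor, direct or restrain the enzyme. Pik3c3, encoding the catalytic subunit VPS34, had 28.3, 27.7 and 25.1 TPM in osteoclasts, against 25.9, 27.0 and 27.9 TPM in BMMs, and its log2 fold change of 0.00 had a 95% interval of -0.16 to 0.16 (limma adjusted p = 0.96), while after median-ratio scaling it passed as lower (-0.20). Becn1 (chr11:101285952-101302286), encoding the core partner Beclin 1, had 37.2, 35.9 and 37.6 TPM in osteoclasts, against 31.9, 31.2 and 32.4 TPM in BMMs (log2 fold change 0.21, SE 0.06, limma adjusted p = 0.011). All 3 osteoclast values of Becn1 lay above those of BMMs, but the difference was -0.0014 after median-ratio scaling, and without BMM replicate 1 or BMM replicate 2 the limma adjusted p was 0.052 or 0.059. Rubcn (chr16:32821703-32877766), encoding Rubicon, an inhibitor of the endosomal form of the complex, had 17.1, 14.5 and 18.7 TPM in osteoclasts, against 28.8, 28.7 and 28.7 TPM in BMMs (log2 fold change -0.75, SE 0.09, limma adjusted p = 0.00013). The BMM values of Rubcn were almost identical and no osteoclast value came near them. Uvrag (chr7:98885021-99141141), a subunit of the endosomal form, had 14.9, 11.9 and 14.1 TPM in osteoclasts, against 19.6, 21.4 and 20.6 TPM in BMMs (log2 fold change -0.56, SE 0.09, limma adjusted p = 0.00075). Atg14 (chr14:47540893-47570649), the subunit that brings the kinase to sites of autophagosome formation, had 14.2, 12.3 and 14.3 TPM in osteoclasts, against 17.5, 17.5 and 17.5 TPM in BMMs (log2 fold change -0.35, SE 0.08, limma adjusted p = 0.0039). Neither gene overlapped between groups. Pik3r4 (chr9:105642978-105687657), encoding the regulatory subunit VPS15, had 10.53, 8.67 and 11.5 TPM in osteoclasts, against 13.2, 12.7 and 13.5 TPM in BMMs (log2 fold change -0.34, SE 0.10, limma adjusted p = 0.017), and without BMM replicate 1 or BMM replicate 3 the limma adjusted p was 0.052 or 0.061. Exons of Becn1 overlap those of Cntd1 on the opposite strand over 43.9% of their length, and the strand setting of the counting was not given in the sources used here. Cntd1 averaged 0.133 TPM in osteoclasts and 0.305 TPM in BMMs.

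Of the genes that act on the growing membrane, 4 of 6 did not pass (33.3% called, against 68.9% of all genes tested). The WIPI paralogs moved in opposite directions, with 1 higher and 1 lower. The WIPI proteins bind PI3P, and WIPI2 recruits the conjugation machinery through ATG16L1. Wipi2 (chr5:142627698-142670588) had 24.8, 21.5 and 24.3 TPM in osteoclasts, against 16.2, 15.9 and 15.5 TPM in BMMs (log2 fold change 0.54, SE 0.07, limma adjusted p = 0.00028). Its paralog Wipi1 (chr11:109573331-109611967) had 12.8, 11.8 and 12.8 TPM in osteoclasts, against 16.6, 15.6 and 17.4 TPM in BMMs (log2 fold change -0.38, SE 0.07, limma adjusted p = 0.0019). The paralogs were near equal in BMMs and Wipi2 was the more abundant in each osteoclast library. ATG2 proteins carry lipid from the endoplasmic reticulum, and ATG9A and VMP1 scramble lipids between membrane leaflets. Atg2a (chr19:6241668-6262335) had 22.6, 17.1 and 26.5 TPM in osteoclasts, against 26.1, 24.9 and 25.6 TPM in BMMs (log2 fold change -0.22, SE 0.14, limma adjusted p = 0.19), the osteoclast values lying on both sides of the BMM range. Atg2b (chr12:105616136-105685211) had 9.85, 7.54 and 10.0 TPM in osteoclasts, against 7.59, 8.17 and 7.33 TPM in BMMs (log2 fold change 0.21, SE 0.11, limma adjusted p = 0.13), with osteoclast replicate 2 inside the BMM range. Atg9a (chr1:75180860-75192196) had 22.3, 15.2 and 24.6 TPM in osteoclasts, against 19.3, 19.1 and 19.9 TPM in BMMs (log2 fold change 0.06, SE 0.15, limma adjusted p = 0.73). Osteoclast replicate 2 was the lowest of the osteoclast libraries for all 3 genes. Without it, Atg2b (0.33) and Atg9a (0.26) passed as higher, with limma adjusted p of 0.0059 and 0.0089, and without osteoclast replicate 3 Atg9a was at -0.07. Atg2a passed as lower without osteoclast replicate 3 (-0.36) and was at -0.06 without osteoclast replicate 2 (limma adjusted p of 0.024 and 0.52). It also passed as lower after median-ratio scaling (-0.43). Vmp1 (chr11:86583865-86683836), the most abundant gene of this step, had 60.8, 64.0 and 44.7 TPM in osteoclasts, against 47.8, 48.0 and 48.2 TPM in BMMs (log2 fold change 0.21, SE 0.12, limma adjusted p = 0.16). There osteoclast replicate 3 stood apart, and without it Vmp1 was higher by 0.37 with a limma adjusted p of 0.00038. Without osteoclast replicate 2 the value was 0.12, with a limma adjusted p of 0.42. Atg9a shares 31.8% of its exonic length with the same-strand transcript Gm29253, whose level was at most 0.119 TPM in any osteoclast library and 0.0834 TPM in any BMM library. The counting of reads matching both was not given, so these levels cannot show where such reads went.

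Of the conjugation genes, 3 of 7 were higher in osteoclasts, 3 were lower and the median log2 fold change was 0.15. The ubiquitin-like protein and its activating enzyme were among the lower genes. Atg12, encoding the protein that is joined to ATG5, had 47.5, 50.7 and 37.4 TPM in osteoclasts, against 70.5, 70.3 and 71.8 TPM in BMMs (log2 fold change -0.65, SE 0.10, limma adjusted p = 0.00071), the largest difference of the step. Atg7 (chr6:114643097-114860614), the E1-like enzyme for ATG12 and the Atg8 proteins, had 25.4, 23.8 and 27.7 TPM in osteoclasts, against 34.5, 33.2 and 33.7 TPM in BMMs (log2 fold change -0.39, SE 0.07, limma adjusted p = 0.0013). Both genes were lower in every osteoclast library than in any BMM library. The E2-like enzymes were higher: Atg3 (chr16:45158785-45188538), which passes Atg8 proteins to lipid, had 65.4, 67.1 and 56.6 TPM in osteoclasts, against 52.3, 50.8 and 47.9 TPM in BMMs (log2 fold change 0.32, SE 0.08, limma adjusted p = 0.0067). Atg10 (chr13:90935356-91223968), which passes ATG12 to ATG5, had 19.3, 19.9 and 14.6 TPM in osteoclasts, against 13.6, 14.4 and 14.2 TPM in BMMs (log2 fold change 0.32, SE 0.11, limma adjusted p = 0.037). For Atg10 osteoclast replicate 3 lay just above the BMM range, and the call was lost under 8 of 14 alternatives, among them the removal of osteoclast replicate 1 or osteoclast replicate 2 or any BMM replicate, with limma adjusted p of 0.076 to 0.41. Atg16l1 (chr1:87755870-87792428), which places the ATG12-ATG5 conjugate on the membrane, had 14.7, 12.8 and 13.98 TPM in osteoclasts, against 10.8, 10.1 and 10.7 TPM in BMMs (log2 fold change 0.36, SE 0.08, limma adjusted p = 0.0034). Its paralog Atg16l2 (chr7:101263034-101302251) had 4.39, 3.73 and 4.63 TPM in osteoclasts, against 5.77, 5.47 and 5.79 TPM in BMMs (log2 fold change -0.35, SE 0.10, limma adjusted p = 0.011). The paralogs moved in opposite directions. Atg3 and Atg16l1 kept a higher value after either other scaling (0.11 and 0.11 for Atg3, 0.16 and 0.15 for Atg16l1) but no longer passed. Atg5 (chr10:44268358-44364291), encoding the acceptor of ATG12, had 52.1, 57.7 and 40.1 TPM in osteoclasts, against 42.6, 43.9 and 46.9 TPM in BMMs (log2 fold change 0.15, SE 0.12, limma adjusted p = 0.31). Its osteoclast range held the BMM range, and without osteoclast replicate 3 it was higher by 0.30 with a limma adjusted p of 0.0064. Without osteoclast replicate 2 the value was 0.04, with a limma adjusted p of 0.76.

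ATG4 proteases both trim Atg8 precursors and release Atg8 proteins from membranes, and ATG4B is regarded as the main form in mammals. Of the 4 genes, 2 passed as higher in osteoclasts and none as lower, with a median log2 fold change of 0.26. Atg4a (chrX:140956907-141164270) had 27.1, 25.3 and 20.3 TPM in osteoclasts, against 12.8, 14.5 and 13.1 TPM in BMMs (log2 fold change 0.80, SE 0.11, limma adjusted p = 0.00029). Atg4d (chr9:21265293-21277772) had 10.4, 9.69 and 11.3 TPM in osteoclasts, against 7.37, 7.91 and 7.45 TPM in BMMs (log2 fold change 0.42, SE 0.08, limma adjusted p = 0.0021). The osteoclast values lay above the BMM values for both genes. Atg4b (chr1:93751500-93790610) had 15.01, 14.2 and 15.7 TPM in osteoclasts, against 16.4, 15.9 and 18.2 TPM in BMMs; these did not overlap, but the difference did not pass (log2 fold change -0.16, SE 0.08, limma adjusted p = 0.11), and it passed as lower after median-ratio scaling (-0.36) and was at -0.10 without BMM replicate 3. Atg4c (chr4:99193934-99259787) had 21.1, 21.1 and 15.7 TPM in osteoclasts, against 17.2, 17.7 and 18.1 TPM in BMMs (log2 fold change 0.11, SE 0.11, limma adjusted p = 0.42), its 2 other osteoclast values lying above osteoclast replicate 3 and above the BMM range. Without osteoclast replicate 3 it was higher by 0.24 (limma adjusted p = 0.0070). Without osteoclast replicate 1 or osteoclast replicate 2 it was at 0.04 (limma adjusted p = 0.79 and 0.76), and after median-ratio scaling at -0.09. Reads of Atg4a could also fall on the copy Atg4a-ps, which shares 24.2% of the 150-base windows and 51.2% of the 50-base windows of Atg4a transcripts. That copy had at most 0.113 TPM in osteoclasts and 0.0295 TPM in BMMs. How reads matching both were counted was not given, so these levels cannot show where such reads went. Atg4d exons overlap those of Kri1 on the opposite strand over 19.3% of their length, and Kri1 averaged 19.6 TPM in osteoclasts and 12.6 TPM in BMMs.

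Every Atg8-family gene passed the test, with 2 of 5 higher in osteoclasts, 3 lower and a median log2 fold change of -0.33. Of all genes tested, 68.9% were called. Map1lc3a (chr2:155276297-155278073), encoding LC3A, had 63.7, 73.5 and 72.8 TPM in osteoclasts, against 33.1, 31.3 and 29.6 TPM in BMMs (log2 fold change 1.13, SE 0.08, limma adjusted p = 3.8e-06), a 2.24-fold ratio of the mean TPM. Gabarapl2 (chr8:111940703-111953612), encoding the family member known as GATE-16, had 74.9, 84.0 and 73.4 TPM in osteoclasts, against 50.6, 52.5 and 52.8 TPM in BMMs (log2 fold change 0.56, SE 0.07, limma adjusted p = 0.00010). These were the only genes of the family that were higher in osteoclasts. Gabarapl1 (chr6:129533160-129542346) had 94.9, 91.5 and 89.0 TPM in osteoclasts, against 190.0, 192 and 205 TPM in BMMs (log2 fold change -1.08, SE 0.05, limma adjusted p = 7.4e-07), a ratio of 0.469. Map1lc3b (chr8:121590361-121598760), encoding LC3B, the form most used as an autophagosome marker, had 56.3, 59.1 and 58.5 TPM in osteoclasts, against 71.8, 72.4 and 76.5 TPM in BMMs (log2 fold change -0.34, SE 0.05, limma adjusted p = 0.00065). Gabarap (chr11:69991143-69994951), by far the most abundant of the family, had 379.6, 446 and 352 TPM in osteoclasts, against 482, 491 and 502 TPM in BMMs (log2 fold change -0.33, SE 0.08, limma adjusted p = 0.0082). The groups did not overlap for any of the 5 genes, as for 73.5% of all genes tested, and each of the 5 kept its call and direction under every alternative run. No 150-base window of the transcripts of Map1lc3a, Gabarap or Gabarapl1 occurred in another gene, and 1.02% of Map1lc3b windows and 0.507% of Gabarapl2 windows did, in Gm6055 and Gm3724 among others, each at 2.64 TPM or less in every library. Of 50-base windows, 5.77% were shared in Map1lc3b and 12.2% in Gabarapl2. Gabarapl1 exons overlap the opposite-strand transcript 1700101I11Rik over 28.3% of their length, a transcript that averaged 0.235 TPM in osteoclasts and 0.501 TPM in BMMs.

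**Figure D2:**
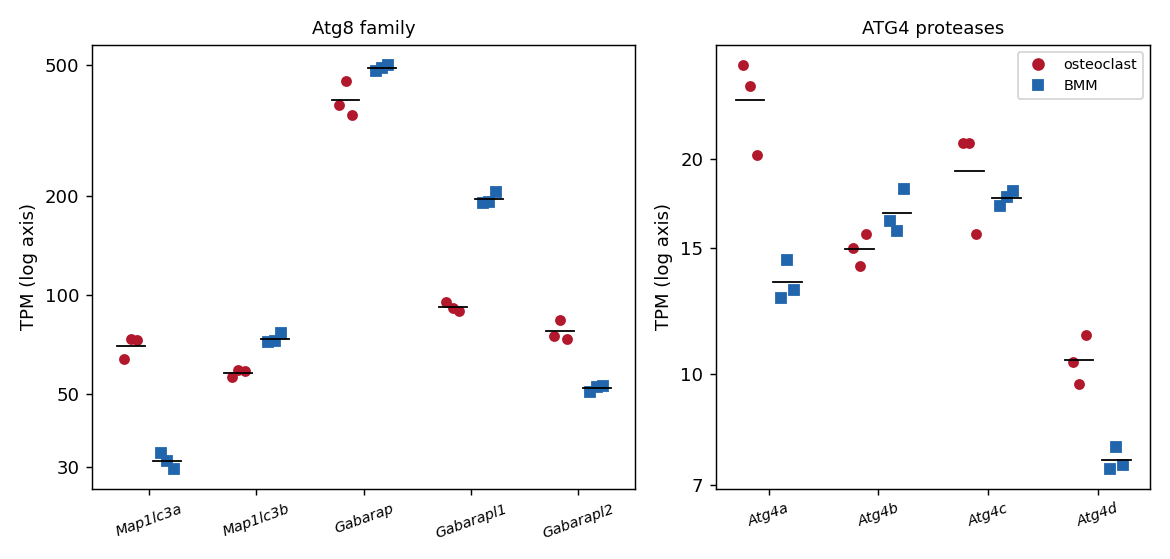
TPM (vertical log axis) of the Atg8-family genes, left, and of the ATG4 protease genes, right, in each osteoclast library (red circles) and each BMM library (blue squares), with the group mean as a bar, 3 libraries a group. The groups do not overlap for any Atg8 gene, and Map1lc3a lies above Map1lc3b in osteoclasts and below it in BMMs.

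Within the family, Map1lc3a made up 10.2% ± 0.954 of the summed TPM in osteoclasts and 3.71% ± 0.293 in BMMs (SD, n = 3 each), and Gabarapl2 made up 11.2% ± 0.121 in osteoclasts and 6.16% ± 0.0830 in BMMs. Gabarapl1 made up 13.4% ± 1.08 in osteoclasts and 23.2% ± 0.459 in BMMs. The shares of Gabarap (56.8% ± 2.32 in osteoclasts, 58.2% ± 0.287 in BMMs) and of Map1lc3b (8.43% ± 0.612 in osteoclasts, 8.72% ± 0.103 in BMMs) differed by less than the osteoclast SD. By TPM, the order in osteoclasts was Gabarap, Gabarapl1, Gabarapl2, Map1lc3a and Map1lc3b, where Gabarapl2 and Map1lc3a overlapped between libraries. In BMMs the order was Gabarap, Gabarapl1, Map1lc3b, Gabarapl2 and Map1lc3a, with no overlap between neighbours.

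Ratios of related genes, in which the scaling of a library cancels apart from the pseudocount, were compared for 10 pairs by exact permutation tests over the libraries. With 3 libraries against 3 the smallest p that such a test can give is 0.1. The log2 ratio of Map1lc3a to Map1lc3b was 0.27 ± 0.0783 in osteoclasts and -1.21 ± 0.125 in BMMs (SD, n = 3 each), a difference of 1.47. That of Gabarapl1 to Gabarapl2 was 0.24 ± 0.110 in osteoclasts and 1.89 ± 0.0436 in BMMs, a difference of -1.65. Gabarap to Gabarapl2 was at 2.32 ± 0.0746 in osteoclasts and 3.22 ± 0.0130 in BMMs. In TPM the LC3 pair thus changed order, while Gabarapl1 stayed above Gabarapl2 by less. Such an order rests on the gene lengths used. The order also changed for Atg4a to Atg4b (0.65 ± 0.261 in osteoclasts, -0.30 ± 0.162 in BMMs). Wipi1 to Wipi2 was at -0.86 ± 0.0453 in osteoclasts and 0.06 ± 0.0911 in BMMs, where the values lay on both sides of 0. Atg16l1 to Atg16l2 was at 1.498 ± 0.0755 in osteoclasts and 0.79 ± 0.0090 in BMMs, and Atg2a to Atg2b at 1.17 ± 0.126 in osteoclasts and 1.61 ± 0.0972 in BMMs. The remaining separated pairs differed by less: Atg4c to Atg4d by -0.31, or -0.12 without osteoclast replicate 3, and Atg14 to Uvrag by 0.22. The groups did not overlap for these 9 pairs, with an exact two-sided permutation p = 0.1, the smallest possible. After adjustment over the 10 pairs it was 0.11. Of single genes tested, 73.5% did not overlap, and the share among other gene pairs was not computed. Some pairs share Gabarapl2, and the pairs were chosen with earlier results known, so their number is a description. Ulk1 to Ulk2 was at -0.47 ± 0.209 in osteoclasts and -0.57 ± 0.0249 in BMMs and overlapped (exact two-sided p = 0.9).

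**Figure D3:**
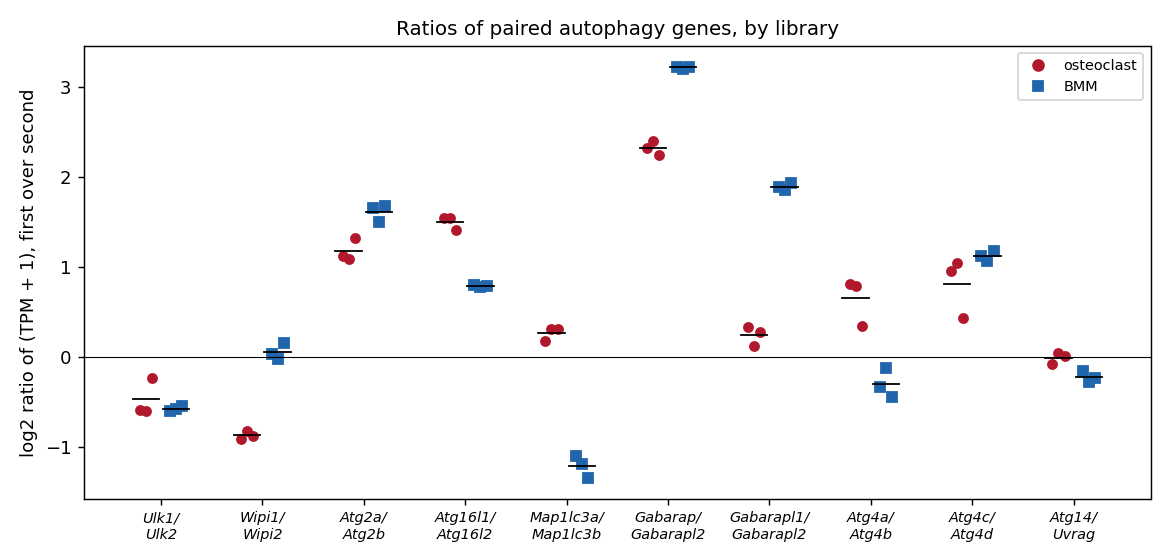
Log2 ratio of TPM + 1 of the 10 gene pairs, first gene over second (vertical axis), in each osteoclast library (red circles) and each BMM library (blue squares), with the group mean as a bar, 3 libraries a group. The groups are separated in 9 pairs and overlap in Ulk1 to Ulk2, and the LC3 pair has the sign of its ratio turned between osteoclasts (mean 0.27) and BMMs (mean -1.21).

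Cargo receptors bind both their cargo and Atg8 proteins. Of these 5 genes, 2 were lower in osteoclasts, 1 was higher and 2 did not pass, with a median log2 fold change of -0.07. Sqstm1 (chr11:50199366-50210827), which encodes p62 and is mutated in Paget disease of bone in humans, was the most abundant member of the whole list, with 579, 597 and 602 TPM in osteoclasts, against 786, 780.1 and 807 TPM in BMMs (log2 fold change -0.42, SE 0.04, limma adjusted p = 5.8e-05). It made up 80.5% ± 1.10 of the summed receptor TPM in osteoclasts and 84.0% ± 0.174 in BMMs (SD, n = 3 each). Calcoco1 (chr15:102706777-102722178), a receptor for endoplasmic reticulum and Golgi fragments, had 25.4, 23.1 and 27.0 TPM in osteoclasts, against 39.0, 36.6 and 41.3 TPM in BMMs (log2 fold change -0.61, SE 0.08, limma adjusted p = 0.00018). Neither gene overlapped between groups. Nbr1 (chr11:101552149-101581951), a relative of p62, had 71.3, 62.1 and 64.7 TPM in osteoclasts, against 57.7, 55.7 and 59.2 TPM in BMMs (log2 fold change 0.19, SE 0.07, limma adjusted p = 0.030). Its call was lost without the variance trend (adjusted p = 0.0501) and without osteoclast replicate 1 or any BMM replicate (0.059 to 0.12), all from limma, and it was at -0.02 after median-ratio scaling. Optn (chr2:5020642-5064051), encoding optineurin, had 9.50, 10.1 and 9.24 TPM in osteoclasts, against 10.1, 9.42 and 9.73 TPM in BMMs, and its log2 fold change of -0.02 had a 95% interval of -0.19 to 0.15 (limma adjusted p = 0.83). Tax1bp1 (chr6:52713729-52766780) had 45.1, 45.8 and 36.6 TPM in osteoclasts, against 43.7, 44.6 and 44.6 TPM in BMMs (log2 fold change -0.07, SE 0.09, limma adjusted p = 0.53), with osteoclast replicate 3 low and the other osteoclast values just above the BMM range. Optn and Tax1bp1 passed as lower after either other scaling (-0.21 and -0.22 for Optn, -0.27 and -0.27 for Tax1bp1). Exons of Sqstm1 overlap those of Mrnip on the opposite strand over 17.3% of their length, and Mrnip averaged 3.54 TPM in osteoclasts and 3.59 TPM in BMMs.

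Neither gene of the last step passed. Stx17 (chr4:48124915-48186507), the SNARE that lets a closed autophagosome fuse with the lysosome, had 14.1, 12.9 and 11.8 TPM in osteoclasts, against 14.6, 14.5 and 14.7 TPM in BMMs (log2 fold change -0.16, SE 0.08, limma adjusted p = 0.099). These values did not overlap, and without osteoclast replicate 1 the gene passed as lower (-0.22, limma adjusted p = 0.030), as it did after median-ratio scaling (-0.36). Without osteoclast replicate 3 it was at -0.10 (limma adjusted p = 0.19). Epg5, encoding a tether of the same step, had 10.4, 6.57 and 10.6 TPM in osteoclasts, against 10.8, 10.7 and 9.77 TPM in BMMs (log2 fold change -0.19, SE 0.16, limma adjusted p = 0.32). Without osteoclast replicate 2, the lowest, Epg5 was at 0.01, without osteoclast replicate 3 it was at -0.29, and it passed as lower under quantile normalization (-0.40).

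Summed over the 40 genes, the machinery took up 2159, 2213 and 2088 TPM in osteoclasts, against 2584, 2579 and 2651 TPM in BMMs, a ratio of the means of 0.827. Sqstm1 and Gabarap were its largest parts. By step, the ratio was 0.649 for the ULK complex, 0.852 for the PI3K complexes, 1.09 for the WIPI, ATG2, ATG9 and VMP1 genes, 0.957 for conjugation, 1.24 for the ATG4 genes, 0.818 for the Atg8 family, 0.782 for the cargo receptors and 0.886 for the fusion genes. The summed ULK complex had 157, 147 and 158 TPM in osteoclasts, against 240.3, 234 and 236 TPM in BMMs. The ATG4 genes had 73.6, 70.2 and 63.0 TPM in osteoclasts, against 53.7, 56.0 and 56.8 TPM in BMMs. Groups did not overlap for these sums. The conjugation genes, with 229, 236 and 195 TPM in osteoclasts, against 230.1, 228 and 231 TPM in BMMs, overlapped. After median-ratio scaling, an alternative chosen after seeing the data for the sums, the ratio was 0.560 for the ULK complex and 1.07 for the ATG4 genes, and that of the WIPI, ATG2, ATG9 and VMP1 genes turned to 0.936. These sums are descriptions with no test.

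The spread between replicates differed by group. The median range of log2(TPM + 1) over the 3 libraries was 0.238 in osteoclasts and 0.0685 in BMMs for the autophagy genes, and 0.255 in osteoclasts and 0.0983 in BMMs for 12296 genes tested. The range was wider in osteoclasts for 36 of the 40 genes (90.0%) and for 81.5% of the 12296 genes. The limma fit takes a spread common to both groups and moderated over all genes, so its SE and p-values do not carry this difference. Osteoclast replicate 2 was the lowest osteoclast library for 22 of the autophagy genes, replicate 3 for 15 and replicate 1 for 3. Base composition moved with these deviations. Over the 40 genes, the Pearson correlation of a library's deviation from the osteoclast mean with the GC content of the longest coding transcript was -0.60 in osteoclast replicate 1, -0.55 in osteoclast replicate 2 and 0.79 in osteoclast replicate 3, and over the 12296 genes it was -0.34, -0.28 and 0.54. With log2 transcript length, it was 0.51, -0.64 and 0.40 over the 40 genes, against 0.20, -0.22 and 0.06 over the 12296 genes. Genes low in GC such as Vmp1, Atg5, Atg10, Atg4a, Atg12, Rb1cc1 and Tax1bp1 were lowest in osteoclast replicate 3, and Epg5, Atg9a, Atg2a, Atg2b and Ulk1 were lowest in osteoclast replicate 2. The 3 deviations of a gene sum to 0, and genes of a library share its preparation, so these correlations are descriptions. The log2 fold change itself had a correlation of -0.19 with GC and -0.26 with log2 length over the 40 genes, against 0.07 and -0.07 over the 12296 genes. The part of base composition in the calls was not tested.

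**Figure D4:**
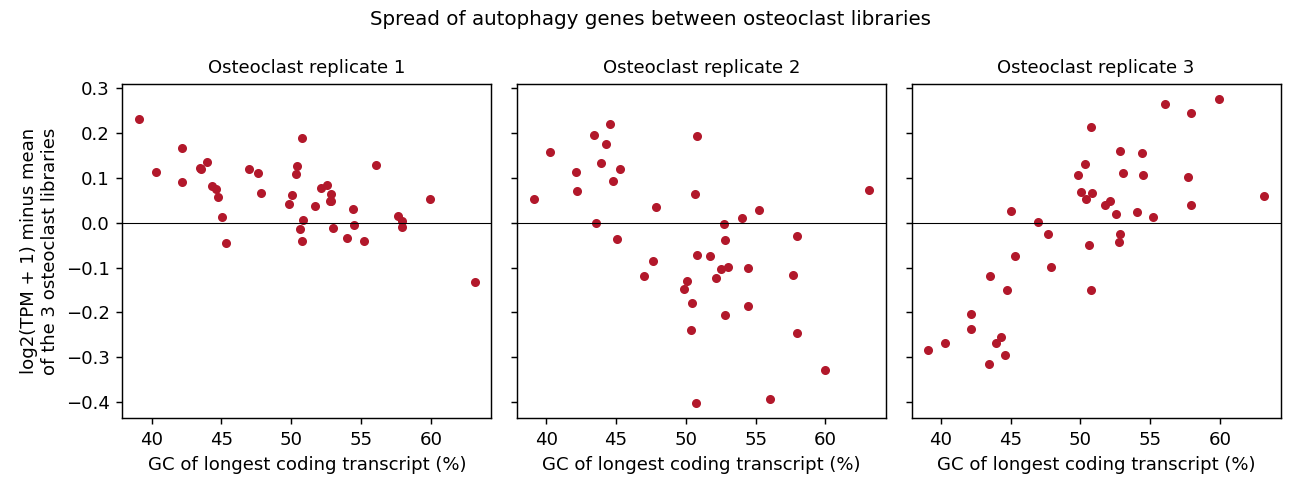
Deviation of log2(TPM + 1) from the mean of the 3 osteoclast libraries (vertical axis) against the GC content of the longest coding transcript in percent (horizontal axis), 1 point per autophagy gene (n = 40), in osteoclast replicates 1, 2 and 3. Points fall with GC in replicates 1 (r = -0.60) and 2 (r = -0.55) and rise with it in replicate 3 (r = 0.79).

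Genes around the core machinery were taken from 4 further lists drawn up by known role. Of 65 listed genes, 63 were in the table and 60 were tested: 14 were higher in osteoclasts (23.3%), 20 were lower (33.3%) and 26 did not pass, with a median log2 fold change of -0.00. After median-ratio scaling 6 were higher and 34 were lower. Of the regulators that sense nutrients and act on ULK1 (mTORC1, Rag GTPases, Ragulator and AMPK), 4 of 20 tested were higher, 5 were lower and 11 did not pass. Rragd, encoding a Rag GTPase that holds TFEB and mTORC1 at the lysosome, had 18.01, 17.9 and 16.9 TPM in osteoclasts, against 7.87, 8.38 and 9.35 TPM in BMMs (log2 fold change 0.97, SE 0.08, limma adjusted p = 1.4e-05). Rheb, the direct activator of mTORC1, was also higher (0.38). Flcn, encoding folliculin, the activator of RagC and RagD, had 43.2, 39.3 and 46.3 TPM in osteoclasts, against 63.2, 63.2 and 65.2 TPM in BMMs (log2 fold change -0.57, SE 0.07, limma adjusted p = 0.00014). Rragc was lower (-0.32), so that the RagD and RagC genes lay on opposite sides. Of the other core factors, 1 of 11 was higher and 6 were lower. Atg9b, the paralog of Atg9a, had 6.96, 6.21 and 7.84 TPM in osteoclasts, against 2.169, 2.41 and 2.53 TPM in BMMs (log2 fold change 1.24, SE 0.11, limma adjusted p = 1.5e-05), and stayed below Atg9a in every library. Snx30, encoding a sorting nexin, had 12.1, 8.79 and 12.1 TPM in osteoclasts, against 31.7, 31.5 and 31.6 TPM in BMMs (log2 fold change -1.46, SE 0.12, limma adjusted p = 1.0e-05). Zfyve1, encoding DFCP1, a PI3P-binding protein of the sites where autophagosomes form, was at -0.80.

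**Figure D5:**
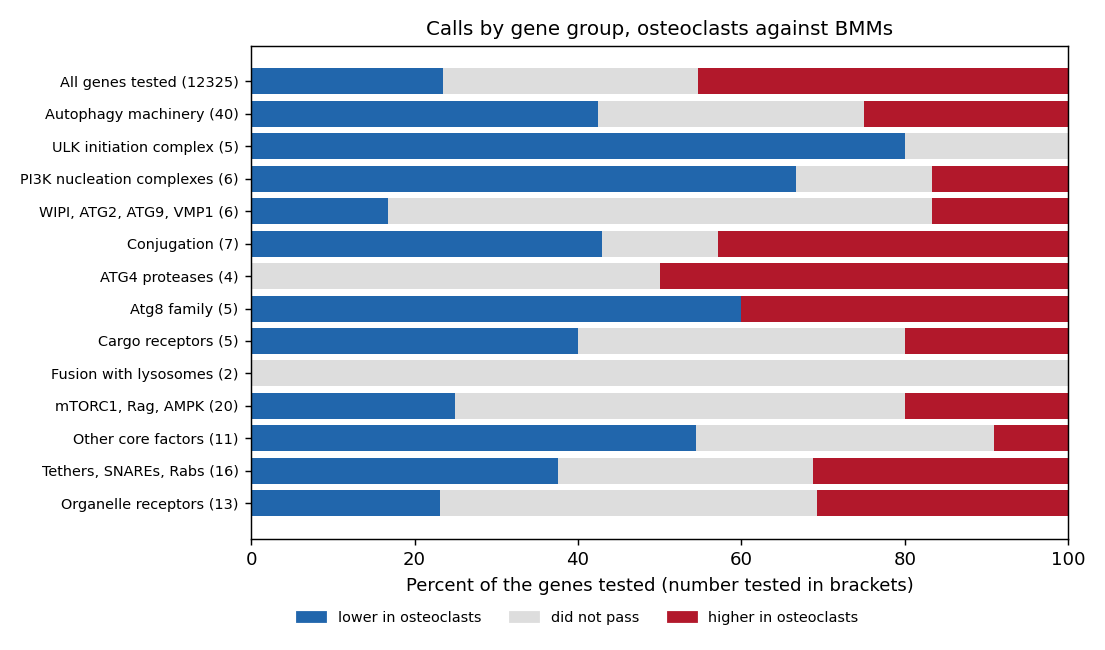
Percent of the genes tested (horizontal axis) that were lower in osteoclasts (blue), did not pass (grey) or were higher in osteoclasts (red), by limma with an adjusted p under 0.05, for all 12325 genes, the 40 autophagy genes, their 8 steps and the 4 further lists, with the number tested in brackets. The ULK complex has 80.0% of its 5 genes lower and none higher, and all genes tested have 23.5% lower and 45.3% higher.

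Tethers, SNAREs and Rab proteins of lysosome fusion were split, with 5 of 16 higher, 6 lower and 5 that did not pass. Vps39, a HOPS tether subunit, was higher by 0.43, and Vamp8, the lysosomal partner of syntaxin 17, had 181, 209.5 and 190.2 TPM in osteoclasts, against 151, 149 and 150.2 TPM in BMMs (log2 fold change 0.36, SE 0.06, limma adjusted p = 0.00097). Snap29, which bridges syntaxin 17 and VAMP8, went the other way, with 39.9, 35.7 and 36.7 TPM in osteoclasts, against 57.0, 57.5 and 59.5 TPM in BMMs (log2 fold change -0.62, SE 0.06, limma adjusted p = 4.0e-05). Tecpr1, a tether that binds the ATG12-ATG5 conjugate, had 12.9, 11.5 and 13.99 TPM in osteoclasts, against 29.8, 27.4 and 29.8 TPM in BMMs (log2 fold change -1.12, SE 0.08, limma adjusted p = 7.1e-06). Of the receptors for organelles, 4 of 13 were higher, 3 were lower and 6 did not pass. Phb2, an inner mitochondrial membrane protein that binds LC3 in mitophagy and has other functions in mitochondria, had 220.4, 238 and 226 TPM in osteoclasts, against 74.0, 76.4 and 74.3 TPM in BMMs (log2 fold change 1.59, SE 0.05, limma adjusted p = 8.3e-08), the largest difference of these lists. Fam134b, an endoplasmic reticulum receptor, and Bnip3, a mitophagy receptor, were each higher by 0.65. Wdfy3, encoding ALFY, a scaffold for aggregates, had 17.3, 9.36 and 18.3 TPM in osteoclasts, against 38.6, 35.9 and 35.2 TPM in BMMs (log2 fold change -1.28, SE 0.21, limma adjusted p = 0.00086), with osteoclast replicate 2 the lowest. Ccpg1, another endoplasmic reticulum receptor, was at -0.56, and Calcoco2 is listed at 0 in all 6 libraries.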

How the data were processed

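RNA-Seq libraries of 3 osteoclast and 3 BMM samples had been made with the NEBNext Ultra II kit and sequenced as 2 × 150-base pairs on 1 lane. Per the study's methods and the submitters' processing notes, reads were demultiplexed with bcl2fastq 2.17, trimmed with Trimmomatic 0.36 and aligned to mm10 with STAR 2.5.2b. The authors deposited 1 table of TPM values per gene, which sum to 1000000 in each library. The counter, its strand setting and the step from counts to TPM were not given in the sources used here, and depth is unknown. The authors tested counts with DESeq2; those counts were not used here.

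Groups came from the labels. For each gene, log2(TPM + 1) was compared, osteoclast minus BMM, with limma 3.58.1 (R 4.3.3; empirical Bayes with an intensity trend, two-sided) over the 12325 genes that averaged 1 TPM or more, with Benjamini-Hochberg adjustment over all of them and a threshold of 0.05. The fit was tested on simulated data in which both groups had the same spread and genes varied independently. The spread of the real libraries differed by group, so that test cannot show how the fit behaves on them. Ratios of gene pairs were compared by exact permutation tests (SciPy 1.17.1), adjusted over 10 pairs. Coordinates are GENCODE vM21 on GRCm38, in which 49056 gene identifiers were found, and promoter windows are from RefSeq on GRCm38.p6. The members, lists, pairs and tests were chosen with earlier results of these data known. All 40 members were accounted for, with values for the extremes of each step, the pair genes and any gene whose call changed; of the further lists, the 2 highest and 2 lowest called genes of each could be named. Rab1a and Retreg1 had no row of that exact name. Retreg1 is another name of Fam134b, which was also listed and is reported above, so that gene was listed under both names. Alternatives (14) changed the pseudocount to 0.1 or 0.5 TPM, dropped the filter or set it to 5 TPM, or used median-ratio or quantile scaling, limma without the trend, a replicate block or each of the 6 libraries left out. Scaling of the step sums was added after seeing the data.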

Additional observations from a re-analysis of the deposited data

How the results depend on the processing

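Of the 27 autophagy genes called, 21 kept their call and direction under every alternative that gave them a value. Whether the replicate numbers pair the libraries is unknown. Deviations of same-numbered libraries from their group means correlated at -0.05, -0.00 and -0.07, and those of differently numbered libraries at -0.065 to 0.10. The deviations of a gene within a group sum to 0, so these values cannot decide it. The fit with the replicate block gave the same 10 higher and 17 lower calls and changed no other call among the 40 genes. Scaling moved counts most. Autophagy genes called higher numbered 5 under median-ratio scaling and 5 under quantile normalization, and genes of the further lists numbered 6 and 8 higher and 34 and 34 lower. With 1 library left out, the autophagy genes had 7 to 13 higher and 16 to 19 lower calls, and the further lists 13 to 17 higher and 16 to 21 lower.

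Under median-ratio and quantile scaling in turn, the log2 fold change turned sign for Pik3c3 (-0.20, -0.20), Atg9a (-0.14, -0.13), Atg5 (-0.057, -0.059), Atg4c (-0.093, -0.102) and Nbr1 (-0.015, -0.010), and for Becn1 under median-ratio scaling (-0.0014). With 1 library left out, the value ranged across 0 for Pik3c3 (-0.029 without osteoclast replicate 1 to 0.054 without osteoclast replicate 3), Atg9a (-0.068 without osteoclast replicate 3 to 0.26 without osteoclast replicate 2), Optn (-0.051 without osteoclast replicate 2 to 0.0058 without osteoclast replicate 3), Tax1bp1 (-0.12 without osteoclast replicate 2 to 0.035 without osteoclast replicate 3), Epg5 (-0.29 without osteoclast replicate 3 to 0.012 without osteoclast replicate 2) and the ratio of Ulk1 to Ulk2 (-0.017 without osteoclast replicate 3 to 0.17 without osteoclast replicate 2). The cause was not tested. After median-ratio scaling, chosen after seeing the data, the ratio of summed TPM was 0.714 for all 40 genes, 0.560 for the ULK complex, 0.735 for the PI3K complexes, 0.936 for the WIPI, ATG2, ATG9 and VMP1 genes, 0.825 for conjugation, 1.07 for the ATG4 genes, 0.706 for the Atg8 family, 0.675 for the cargo receptors and 0.763 for the fusion genes. Atg16l2 has no value under the filter at 5 TPM. Depth, and with it counting error, is unknown, and 3 libraries a group limit the precision.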
